A study of Mus musculus with 4 samples.

Results

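Dendritic-like cells were 197 of the 22916 cell barcodes that passed the filter in 4 single-cell libraries of mouse stem and progenitor marrow. A barcode was taken as one when Xcr1, Clec9a, Cd209a and Naaa together made up at least 0.03% of its unique molecular identifiers (UMIs, 1 per captured RNA molecule), H2-Aa and H2-Ab1 together had at least 5 UMIs, and the B-lineage genes Cd79a and Vpreb1 together had at most 2. The filter kept barcodes with 1000 or more genes and no more than 10% of UMIs from mitochondrial genes. The control library held 36 such cells, the Mll3-labelled library 54, the Mll4-labelled library 107 and the Mll3/4-labelled library 0.

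The study profiled RNA and 6 surface proteins in donor-derived (CD45.2+) LSK cells, which are lineage-negative, Sca1-positive, Kit-positive marrow cells, 10 weeks after transplantation. There was 1 library each for control, Mll3 deleted, Mll4 deleted and Mll3/4 deleted cells. Mll3 and Mll4 are the products of Kmt2c and Kmt2d, large histone methyltransferases of enhancer complexes. The labels gave neither the number of mice behind a library, nor the age of donors, nor the driver of the deletion, and the treatment of controls was not described. With 1 library per genotype differences between libraries could not be tested, and every 95% interval covers counting error only.

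Dendritic cells take up, process and present antigen to T cells. Conventional type 1 cells (cDC1) carry the chemokine receptor Xcr1 and the dead-cell receptor Clec9a, depend on Irf8 and Batf3, and present captured antigen on MHC class I. Type 2 cells (cDC2) carry Cd209a and Sirpa and lean on Irf4 and Klf4, while plasmacytoid cells (pDC) carry Siglech and depend on Tcf4. Both conventional types arise in marrow from Flt3-positive progenitors, and mature ones are not usually counted among LSK cells.

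Passing barcodes of the control numbered 7274; the Mll3-labelled library had 6101, the Mll4-labelled one 4793 and the Mll3/4-labelled one 4748, and unlabelled series of values keep this order. Their median depth was between 8920 and 21400 UMIs. Library pairs shared 9 to 22 barcode sequences, none of which was a dendritic-like cell in both. In the dendritic-like cells Kmt2c (ENSMUSG00000038056, chromosome 5, 25271798 to 25498783, GRCm38) stood at 73.8 CPM (UMIs scaled to the same total; 52.7 to 100.5) in control, 25.7 (14.96 to 41.1) in Mll3-labelled and 66.2 (55.7 to 78.2) in Mll4-labelled cells. Kmt2d (ENSMUSG00000048154, chromosome 15, 98831669 to 98871204) stood at 18.5 (8.85 to 33.9), 24.2 (13.8 to 39.3) and 29.3 (22.5 to 37.6) CPM. Kmt2d was therefore not lower in the library labelled for its deletion, and libraries are named by their labels; whether the counted 3-prime end lies in the deleted part is not given in the sources used here.

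The control had a share of barcodes of 0.495% (0.347 to 0.685), the Mll3-labelled library of 0.885% (0.666 to 1.15) and the Mll4-labelled library of 2.23% (1.83 to 2.69). In the Mll3/4-labelled library 0 of 4748 barcodes qualified, which allows a share of up to 0.0632% (3 counts) or 0.0777% (exact upper bound). Among the 3 libraries with such cells, only the intervals of the control and the Mll3-labelled library overlapped. The order of the libraries was the same with at most 5% mitochondrial UMIs, where the shares were 0.724%, 1.42% and 2.36%. After thinning each barcode to 5000 UMIs, which left out 79, 60, 505 and 587 shallower barcodes, the shares were 0.445%, 0.828%, 2.61% and 0 (upper bound 0.0886%). Because these are shares of sorted LSK cells, a change in the other cells that passed the sort cannot be told apart from a change in dendritic-like cells.

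**Figure D1:**
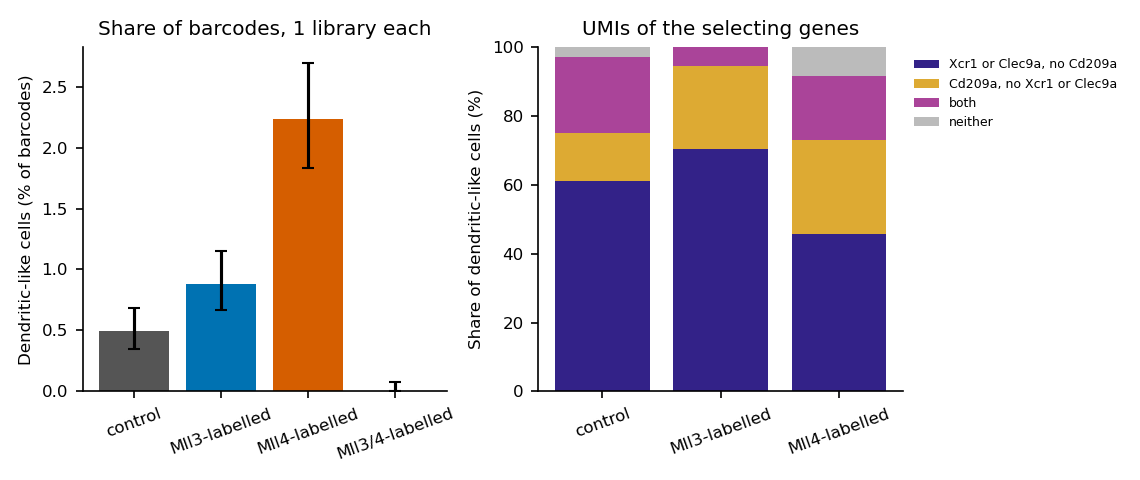
Left, dendritic-like cells as a percentage of passing barcodes in each library (1 library a genotype; bars are exact 95% binomial intervals for counting error). Right, the percentage of dendritic-like cells with UMIs of Xcr1 or Clec9a, of Cd209a, of both or of neither; the Mll4-labelled library has the highest share of barcodes and the Mll3/4-labelled library has no such cell.

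Closest to the selecting share, the lowest cell inside had 0.0313%, 0.0313% and 0.0306% of its UMIs from the 4 genes. Among barcodes within the H2-Aa, H2-Ab1, Cd79a and Vpreb1 limits, the highest outside had 0.0279% and 0.0267% in the first 2 libraries. In the Mll4-labelled one it was just under the selecting share. A further 3 Mll3-labelled and 19 Mll4-labelled barcodes reached the share but had fewer than 5 H2-Aa and H2-Ab1 UMIs. In the Mll4-labelled library 1 more was over the Cd79a and Vpreb1 limit. The highest barcode of the Mll3/4-labelled library reached 0.0270%. That library held 1 Xcr1 UMI, 0 Clec9a UMIs, 0 Cd209a UMIs and 105 Naaa UMIs in all. It did hold RNA that the rule also reads: 7076 H2-Ab1 UMIs in 2846 barcodes and 234 H2-Aa UMIs, with 347 barcodes at 5 or more of both together. All but 26 of its barcodes were over the limit for Cd79a and Vpreb1 (99.5%), yet no barcode passed the share of the 4 genes either, so that limit removed none. The same library had 1193 Flt3 UMIs in 771 barcodes, 282 of Irf8, 8 of Batf3 and 6 of Zbtb46.

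The label was checked against its 5 markers. Xcr1 (chromosome 9, 123852315 to 123862029), the receptor for Xcl1, was found in 21 of 36, 35 of 54 and 39 of 107 cells. Its level was 279 (236 to 327), 414 (366 to 466) and 215 (196 to 236) CPM in the control, Mll3-labelled and Mll4-labelled cells. In the other barcodes of those libraries it was found in 2, 0 and 34. Clec9a (chromosome 6, 129408862 to 129424763), a receptor for the exposed actin of dead cells, stood at 201 (165 to 243), 269 (231 to 312) and 162 (145 to 180) CPM. Cd209a (chromosome 8, 3743397 to 3748984), a lectin of the DC-SIGN family, stood at 207 (170 to 248.7), 189 (157 to 225) and 254 (233 to 277). Naaa (chromosome 5, 92257659 to 92278170), a lysosomal amidase, stood at 843 (768 to 924), 1352 (1265 to 1444) and 687 (652 to 723). These 4 genes chose the cells, so their levels only describe the choice.

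Irf8 (chromosome 8, 120736358 to 120756694), the factor that specifies cDC1 and was not part of the rule, stood at 1148 (1059 to 1242), 1831 (1730 to 1937) and 829 (790 to 868) CPM. It was found in 31 of 36, 44 of 54 and 77 of 107 dendritic-like cells (86.1%, 81.5% and 71.96%, at median depths of 13910, 11460 and 17650 UMIs). The lymphoid-primed cells of the same libraries (at least 0.02% Dntt) had Irf8 in 44.0%, 37.7% and 36.7% at 17050, 16520 and 28430 UMIs, and at 65.1, 52.8 and 48.7 CPM. Irf8 was thus more than 10-fold higher by CPM in the dendritic-like than in the lymphoid-primed cells of each of the 3 libraries. The gap was smaller to the monocyte and macrophage-like cells (at least 0.05% Ms4a6c, F13a1, Csf1r, Fcgr4 and C1qb). They had Irf8 at 343, 587 and 168 CPM, in 67.5%, 91.9% and 59.1% of cells. Granulocyte progenitors (at least 1% Elane, Prtn3 and Ctsg) had it in 57.9%, 57.1% and 70.4%. A UMI of Irf8 was therefore not particular to the dendritic-like cells.

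The cDC1 list of 16 genes summed to 5250, 7806 and 4791 CPM in the dendritic-like cells and to 208, 189 and 430 CPM in the other barcodes. The list holds 3 of the selecting genes, so this contrast is a description. The cells were not uniform: per-cell sums ran from 310 to 14000 CPM (control), from 279 to 16910 (Mll3-labelled) and from 202 to 15630 (Mll4-labelled). The medians were 5586, 8551 and 1839 CPM.

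Apart from the selecting genes, the 15 genes most raised over other barcodes in every library were Ifi205, Tlr3, Jaml, Phf11a, Gpr141b, Olfm1, Ckb, Btla, Klrd1, H2-DMb2, Ciita, Plbd1, Ppfia4, Slamf8 and Batf3. Plbd1, a phospholipase-like lysosomal protein, stood at 862, 1236 and 956 CPM against 1.24, 1.42 and 37.6 in other barcodes. Tlr3, the endosomal sensor of double-stranded RNA, stood at 148, 254 and 141 CPM against 0.892, 1.37 and 1.67. Ckb, the brain-type creatine kinase, stood at 469, 923 and 229 CPM, highest in the Mll3-labelled and lowest in the Mll4-labelled cells. Btla, an inhibitory receptor of lymphocytes and dendritic cells, stood at 92.3, 112 and 88.0 CPM.

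Some defining genes of plasmacytoid and of migratory dendritic cells were at or near 0, but not all genes of their lists were. Siglech, the defining pDC receptor, had 0, 0 and 7 UMIs, and Klk1 had none in any library. The pDC list as a whole summed to 720, 824 and 892 CPM against 578, 624 and 488 in other barcodes. Of its 16 genes 5, 4 and 1 were at 0, and 4, 5 and 5 stood at 50 CPM or more. Ccr7, the receptor that brings mature dendritic cells to lymph nodes, had 0, 0 and 1 UMI, and Il12b had none. The migratory list summed to 303, 269 and 403 CPM against 267, 243 and 400. Of its 16 genes 6, 5 and 2 were at 0, and 3, 2 and 3 stood at 50 CPM or more.

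Markers of other cells differed between libraries in the same cells. The 12-gene monocyte and macrophage list summed to 1989, 1688 and 7570 CPM, with no gene at 0 in any library and with per-cell ranges of 362 to 33560, 102 to 69110 and 235 to 57230. The granulocyte list summed to 288, 80.1 and 958 CPM with 2, 4 and 0 of its 12 genes at 0. The mast and basophil list summed to 22.1, 16.6 and 258 CPM with 8, 9 and 0 of its 10 genes at 0. B-lineage genes summed to 49.8, 46.8 and 57.7 CPM, with 8, 8 and 3 of 12 at 0. Stem cell (HSC) genes summed to 415, 174 and 134 CPM with 1, 0 and 0 of 12 at 0, against 1248, 1305 and 728 in other barcodes.

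Most UMIs of the C1q genes and of the HSC list lay in few cells, which were picked by those same UMIs. In the Mll4-labelled library 29 of 107 cells had 5 or more UMIs of the macrophage complement genes C1qa, C1qb and C1qc, and they held 98.6% of those UMIs. In the control 5 of 36 and in the Mll3-labelled library 2 of 54 did. Without them the share of barcodes in the Mll4-labelled library was 1.63%. Cells with 10 or more HSC-list UMIs numbered 9, 3 and 7, held 93.3%, 83.5% and 80.9% of those UMIs, and had median depths of 22340, 26900 and 33880 UMIs against 11270, 10680 and 17180 in the rest. Among all dendritic-like cells 2, 5 and 2 had doublet scores among the highest of their library; the part of doublets in these groups was not tested.

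RNA of granulocyte, mast and plasma cells was also widespread in the Mll4-labelled library. Elane, a neutrophil protease, had a UMI in 5.56%, 3.70% and 70.1% of dendritic-like cells, and in 3.16%, 4.42% and 66.5% of lymphoid-primed cells, which should lack it. Cpa3, a mast-cell protease, had a UMI in 0%, 0% and 43.0% of dendritic-like cells and in 3.47%, 14.4% and 48.1% of lymphoid-primed cells. Igkc, on the plasma cell list, had a UMI in 41.7%, 44.4% and 98.1% against 28.9%, 40.0% and 99.4%. Median depths were 13910, 11460 and 17650 UMIs in dendritic-like and 17050, 16520 and 28430 in lymphoid-primed cells. The shares of Elane and Igkc, and those at or below the lymphoid-primed cells, are not read as expression. The part of free RNA was not tested. C1qa had a UMI in 11.1%, 5.56% and 32.7% of dendritic-like cells against 1.89%, 0.930% and 8.23% of lymphoid-primed cells.

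The dendritic-like cells fell into cells with Xcr1 or Clec9a and cells with Cd209a. In the control 22 of 36 (61.1%, 43.5 to 76.9) had Xcr1 or Clec9a without Cd209a, 5 had Cd209a alone, 8 had both and 1 had neither. In the Mll3-labelled library the numbers were 38 of 54 (70.4%, 56.4 to 82.0), 13, 3 and 0. In the Mll4-labelled library they were 49 of 107 (45.8%, 36.1 to 55.7), 29, 20 and 9. Xcr1 itself met Cd209a in 1, 0 and 0 cells, while it met Clec9a in 20 of 21, 34 of 35 and 36 of 39 Xcr1 cells. The cells with both were therefore, with 1 exception, Clec9a and Cd209a cells without Xcr1 (7, 3 and 20).

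**Figure D2:**
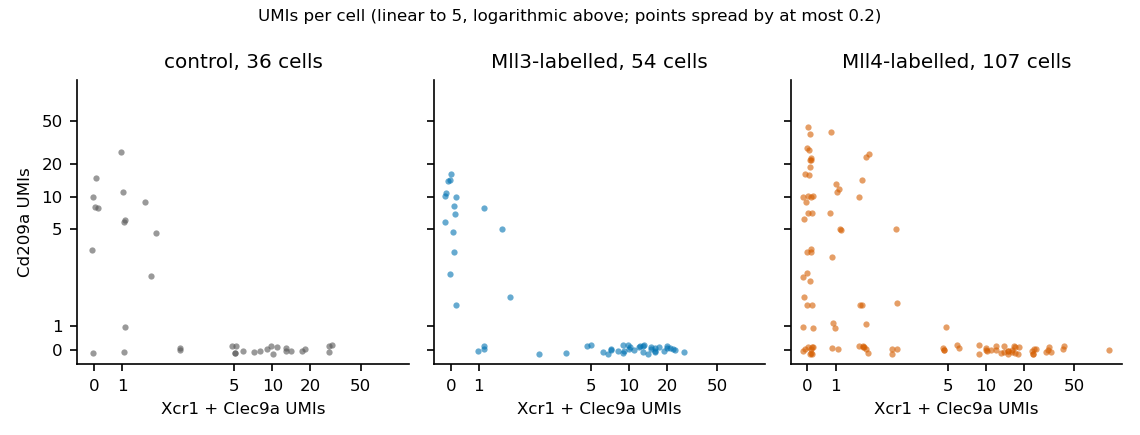
UMIs per dendritic-like cell of Xcr1 and Clec9a together (x axis) and of Cd209a (y axis) in 3 libraries; both axes are linear to 5 UMIs and logarithmic above, and points are spread by at most 0.2. Cells rich in Xcr1 and Clec9a lie along the floor of the plot and cells rich in Cd209a near its left edge, with few between.

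Several genes that did not define this split lay apart across it by more than counting error in each library, which is a description of the chosen cells. Irf8 stood at 1704 CPM in Xcr1 or Clec9a cells and 72.5 in Cd209a-only cells of the control, at 2208 and 94.0 in the Mll3-labelled, and at 1435 and 91.3 in the Mll4-labelled library. The log2 ratios were 4.39 (3.19 to 6.44), 4.48 (3.63 to 5.69) and 3.96 (3.57 to 4.42). Id2, an inhibitor of E proteins needed for cDC1, stood at 974 against 72.5, 1082 against 282 and 704 against 285 CPM. Wdfy4, needed in cDC1 to cross-present cell-associated antigen, had log2 ratios of 3.15, 1.12 and 1.61. Ppt1, a lysosomal thioesterase, stood at 798 against 90.6, 964 against 20.9 and 1619 against 158 CPM. Other cDC1 genes did not hold to one side: Batf3 was at 0.51 (−0.18 to 1.37) in the Mll3-labelled and Cadm1 at −0.32 (−0.61 to −0.03) in the Mll4-labelled library.

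Several genes of the cDC2 list, and Zeb2, were higher on the other side of the split. Fcer1g, the signalling chain of Fc receptors, stood at 1468 CPM in Cd209a-only cells against 173 in Xcr1 or Clec9a cells of the control, at 1274 against 206 in the Mll3-labelled and at 1179 against 445 in the Mll4-labelled library. S100a4, a calcium-binding protein, stood at 689 against 48.1, 355 against 14.7 and 1010 against 67.0 CPM. Sirpa, the receptor for Cd47 that defines cDC2 on the surface, stood at 90.6 against 2.83, 104 against 7.37 and 266 against 71.4, resting on only 5 against 1 UMIs in the control. Zeb2, a repressor opposing the cDC1 fate, stood at 181 against 22.7, 334 against 22.1 and 669 against 328 CPM. Not all such genes lay there. Ccr2 was higher on the Xcr1 or Clec9a side in the control (1.65, 0.77 to 2.88) and the Mll3-labelled library (0.55, 0.13 to 1.02), as were C1qa (0.92, 0.60 to 1.27) and Adgre1 (1.37, 0.35 to 2.74) in the Mll4-labelled one. That side also held Clec9a cells without Xcr1 (2, 3 and 10). Their monocyte and macrophage list summed to 936, 38100 and 18160 CPM, against 1147, 824 and 1547 in Xcr1 cells. The part of these cells in the ratios was not tested. Flt3, the receptor shared by both types, had intervals that included 0, with log2 ratios of 0.05 (−0.95 to 1.41), 0.29 (−0.51 to 1.30) and 0.05 (−0.33 to 0.45).

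**Figure D3:**
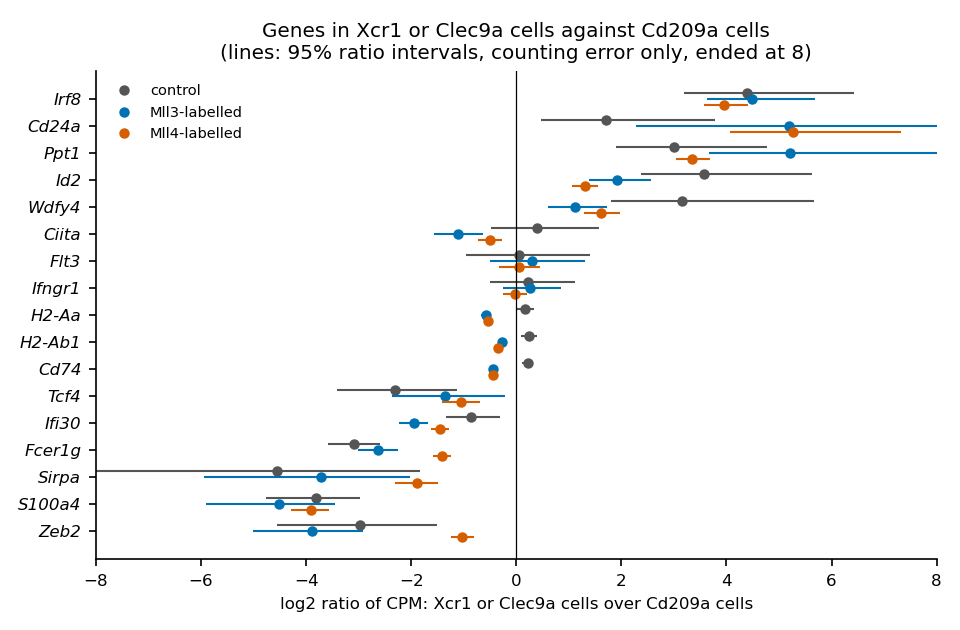
Log2 ratios of CPM between cells with Xcr1 or Clec9a and cells with Cd209a only, in 3 libraries (points), with exact 95% ratio intervals for counting error (lines, ended at 8). The genes drawn are a choice. Batf3, Cadm1 and Ccr2, whose ratios in the text did not all follow their lists, are not drawn. Among the genes drawn, Irf8, Cd24a, Ppt1, Id2 and Wdfy4 lie to the right of 0 in each library. Zeb2, S100a4, Sirpa, Fcer1g, Ifi30 and Tcf4 lie to the left.

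MHC class II genes did not keep 1 side of the split. H2-Aa had log2 ratios of 0.16 (−0.01 to 0.33) among control cells, −0.58 (−0.67 to −0.49) among Mll3-labelled and −0.55 (−0.60 to −0.50) among Mll4-labelled cells. Ciita, the class II transactivator, had 0.40 (−0.49 to 1.57), −1.11 (−1.57 to −0.63) and −0.51 (−0.73 to −0.28). In the Mll3-labelled and Mll4-labelled libraries, but not in the control, these genes were thus higher in the Cd209a-only cells, of which the control had 5.

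Against the control, Mll3-labelled dendritic-like cells had 109 of 2862 genes at least 2-fold apart (3.81%), 47 higher (1.64%) and 62 lower (2.17%). With mitochondrial and ribosomal protein genes left out of the total, the split was 30 higher and 88 lower. In the Mll4-labelled library 354 of 2853 genes were 2-fold apart (12.4%), 196 higher (6.87%) and 158 lower (5.54%). With TMM scaling, which moved the median of all genes from −0.10 to 0.02, that split was 236 and 104. The 2 comparisons share the control cells, and without replicate libraries the counts cannot be set against a spread between mice.

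In the Mll3-labelled cells none of 15 cDC1 genes reached 2-fold (3.81% of all genes did), but 14 lay above 0 (median log2 0.59, all genes 0.07). The list includes the selecting genes Xcr1, Clec9a and Naaa, so its counts and medians in both comparisons are descriptions. Irf8 was at log2 0.67 (0.53 to 0.82), Tlr3 at 0.78 (0.39 to 1.19) and Batf3, the AP-1 partner of Irf8, at 0.50 (0.13 to 0.89). In the Mll4-labelled cells 1 of 14 reached it (12.4% of all genes did), and 12 lay below 0 (median −0.30, all genes −0.10). Irf8 was at −0.47 (−0.60 to −0.34), Batf3 at −0.66 (−1.004 to −0.29) and Id2 at −0.54 (−0.71 to −0.36). That gene was Cadm1, an adhesion molecule of cDC1, at 246 (225 to 268) against 90.4 (66.9 to 120) CPM; its level in the monocyte and macrophage-like cells of that library was 84.8.

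These list medians depended on which cells were counted. Among cells with a Xcr1 UMI only (21, 35 and 39 cells), the cDC1 medians were 0.19 and −0.09, and all genes were at 0.05 and −0.09. In these cells 3.86% and 8.65% of genes were 2-fold apart. Irf8 stood at 1779 (1633 to 1935), 2233 (2107 to 2364) and 1628 (1550 to 1710) CPM in them, so the control and the Mll4-labelled cells overlapped in their intervals and the Mll3-labelled cells lay above both.

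The cDC2 list showed 1 gene of 8 at least 2-fold higher and 1 lower in the Mll3-labelled cells (median 0.10), where 1.64% and 2.17% of all genes were. In the Mll4-labelled cells 8 of 11 were at least 2-fold higher and none lower (median 1.14), against 6.87% and 5.54% of all genes (median −0.10). The list includes the selecting gene Cd209a. Mgl2, a lectin of cDC2 and macrophages, stood at 22.1 (11.4 to 38.7), 119 (94.5 to 149) and 122 (108 to 138) CPM, higher in both mutant libraries, but found in only 3, 8 and 18 cells. Csf1r, the M-CSF receptor, stood at 31.4 (18.3 to 50.2), 16.6 (8.30 to 29.7) and 186 (169 to 206). Sirpa stood at 38.8 (24.0 to 59.2), 25.7 (14.96 to 41.1) and 160 (143 to 177). Ccr2, the chemokine receptor of monocytes and cDC2 precursors, stood at 565, 692 and 1169 CPM, and Irf4 at 16.6, 3.02 and 14.7.

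Beside the cDC2 values of the Mll4-labelled cells stand their macrophage genes: 7 of 9 monocyte and macrophage genes were at least 2-fold higher than in the control (median 3.29), against 6.87% of all genes. Without the cells with 5 or more C1q UMIs the cDC2 median was 0.86, and among Xcr1 cells 0.25. Zeb2, which is not on the cDC2 list, was higher in the Mll4-labelled library in Xcr1 cells too. It stood there at 16.3 (5.29 to 38.0), 11.3 (4.15 to 24.6) and 137 (115 to 163) CPM, with a wide interval in the control. Over all dendritic-like cells it stood at 90.4, 72.5 and 541 CPM. The part of macrophage RNA in these values was not tested.

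**Figure D4:**
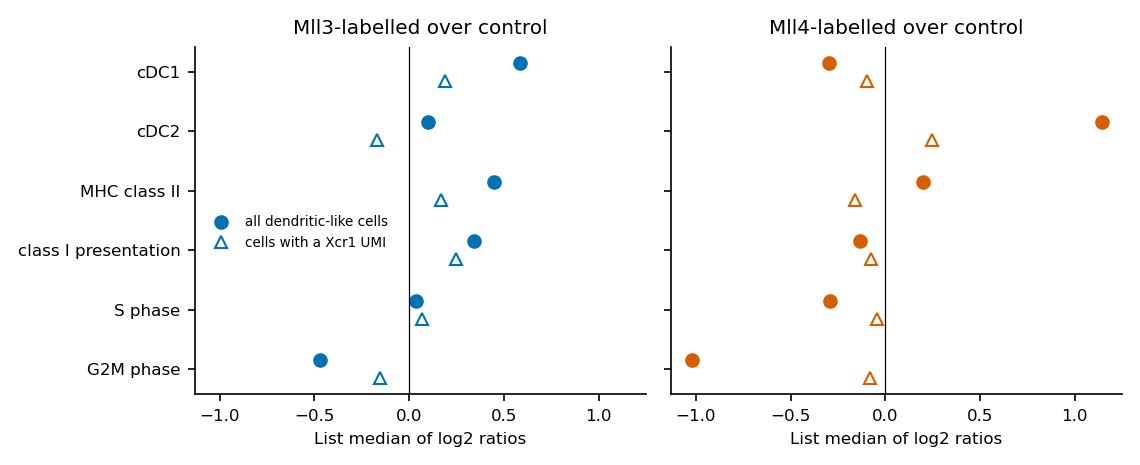
Medians of log2 CPM ratios to the control over the genes of 6 fixed lists, for all dendritic-like cells (filled circles) and for cells with a Xcr1 UMI (open triangles), in the Mll3-labelled (left) and Mll4-labelled (right) libraries. The medians furthest from 0, cDC2 at 1.14 and G2M at −1.02 in the Mll4-labelled library, lie at 0.25 and −0.08 in the Xcr1 cells.

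Of 11 and 10 genes of the list of dendritic cell factors above the minimum, 0 and 2 were at least 2-fold higher and none lower (medians 0.38 and 0.11). Over all genes 1.64% and 6.87% were higher (medians 0.07 and −0.10). The 2 were Zeb2 and Klf4, a zinc-finger factor of cDC2, which stood at 49.8 (32.8 to 72.5), 89.2 (67.9 to 115) and 140 (125 to 157) CPM. Zbtb46, which marks conventional dendritic cells, stood at 44.3 (28.4 to 65.9), 71.0 (52.2 to 94.4) and 33.1 (25.8 to 41.9). Flt3 stood at 131 (102 to 165), 171 (141 to 205) and 145 (129 to 162), with overlapping intervals, as did Spi1 (PU.1) at 345, 443 and 347 in the control and the Mll4-labelled cells.

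MHC class II genes encode the chains that present peptide to CD4 T cells, the invariant chain Cd74, the H2-DM and H2-O peptide editors, and the regulators Ciita and Rfx. The genes of the chains, of Cd74 and of the editors share promoter elements, among them the Y box, a binding site of NF-Y that contains ATTGG. For 12 of the 16 list genes RefSeq starts on GRCm38.p6 were at hand, and the 150 bases upstream of each were searched for ATTGG or its reverse complement CCAAT. Of the 12 genes 9 held a match. By start it was 9 of 13, beside 24.5% of the 32843 promoters of the table in windows of the same length. H2-DMa, an editor gene, had no match at either of its starts, and Ctss and Ifi30 had none. The 9 genes with a match include the regulators Rfx5 and Rfxank, whose matches are not read as the shared Y box. The windows of 4 class II genes with a match, and of Ctss, whose window had none and whose level differed most in the Mll4-labelled cells, are shown 5′ to 3′ on the gene's strand, with matches in capitals: H2-Aa (chr17:34287824-34287973, minus strand), H2-Eb1 (chr17:34305717-34305866, plus), H2-DMb1 (chr17:34153041-34153190, plus), H2-Oa (chr17:34092229-34092378, plus) and Ctss (chr3:95526636-95526785, plus).
H2-Aa: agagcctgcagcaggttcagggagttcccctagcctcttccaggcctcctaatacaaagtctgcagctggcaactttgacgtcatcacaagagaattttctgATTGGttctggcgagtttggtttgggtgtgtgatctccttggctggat
H2-Eb1: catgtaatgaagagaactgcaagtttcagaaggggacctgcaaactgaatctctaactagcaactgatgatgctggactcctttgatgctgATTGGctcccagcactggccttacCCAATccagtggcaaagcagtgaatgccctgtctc
H2-DMb1: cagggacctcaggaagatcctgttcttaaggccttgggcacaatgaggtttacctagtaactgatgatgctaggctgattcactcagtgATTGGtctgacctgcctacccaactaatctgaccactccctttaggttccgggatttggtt
H2-Oa: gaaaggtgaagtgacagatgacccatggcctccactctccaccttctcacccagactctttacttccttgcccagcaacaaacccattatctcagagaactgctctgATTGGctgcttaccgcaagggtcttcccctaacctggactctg
Ctss: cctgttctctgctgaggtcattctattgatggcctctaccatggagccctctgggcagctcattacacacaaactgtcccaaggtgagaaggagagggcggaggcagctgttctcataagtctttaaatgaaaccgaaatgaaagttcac
Matches lay 48, 59 and 35, 61, and 43 bases before the starts of H2-Aa, H2-Eb1, H2-DMb1 and H2-Oa. A match is a run of letters, and nothing about binding was measured.

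In the Mll3-labelled cells all 12 class II genes above the minimum lay above 0 and none reached 2-fold (median 0.45, all genes 0.07). The summed list stood at 39170, 52640 and 43070 CPM in the 3 libraries. H2-Aa stood at 6748 (6531 to 6970), 9093 (8865 to 9326) and 8250 (8128 to 8374) CPM, and it was also part of the rule. H2-Eb1, not part of it, stood at 5307 (5115 to 5504), 7452 (7246 to 7663) and 7175 (7061 to 7290). Cd74 stood at 15790 (15460 to 16130), 20790 (20440 to 21140) and 15310 (15150 to 15480). In Xcr1 cells the Mll3-labelled median was 0.17.

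The Mll4-labelled cells showed no common direction among class II genes: 8 of 12 lay above 0 and 4 below (median 0.20, and −0.16 in Xcr1 cells). Ctss, the protease that removes the invariant chain, stood at 375 (325 to 430), 425 (376 to 477) and 1707 (1651 to 1763) CPM. In the monocyte and macrophage-like cells of the Mll4-labelled library Ctss was at 1319 CPM, and in their control counterparts at 221. H2-DMb2 stood at 81.2 (59.0 to 109), 119 (94.5 to 149) and 169 (152 to 187), the other gene at least 2-fold higher. H2-DMa, which with H2-DMb loads peptide, stood at 792 (719 to 870), 1250.0 (1166 to 1338) and 644 (610 to 679), so it was highest in the Mll3-labelled and lowest in the Mll4-labelled cells. Ciita stood at 238 (199 to 283), 329 (287 to 376) and 405 (378 to 433) CPM.

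Among class I presentation genes none of 14 reached 2-fold in either library, where 3.81% and 12.4% of all genes did; 12 of 14 lay above 0 in the Mll3-labelled (median 0.34) and 6 of 14 in the Mll4-labelled cells (median −0.13). The immunoproteasome subunits Psmb8 and Psmb9, which trim peptides for class I, were higher than in the control in the Mll3-labelled and lower in the Mll4-labelled cells. Psmb8 stood at 1389 (1292 to 1492), 2126 (2016 to 2240) and 778 (741 to 817) CPM and Psmb9 at 696 (627 to 770), 1015 (940 to 1095) and 381 (356 to 409). In Xcr1 cells Psmb8 stood at 1691, 2269 and 1024, the same order. The other barcodes of the same libraries had Psmb8 at 700, 869 and 374 CPM, again in that order. B2m, the class I light chain, went the other way, at 1508 (1406 to 1615), 1266 (1182 to 1355) and 2850.0 (2778 to 2923).

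Genes of the G2M phase summed to 3552, 2474 and 2281 CPM and those of S phase to 1223, 1204 and 969. Per cell the G2M sum was spread from 0 to 12480, 12810 and 14320 CPM, and its medians were 446, 414 and 422. Mki67, a marker of dividing cells, was found in 14 of 36, 19 of 54 and 42 of 107 cells. In the Mll4-labelled cells 6 of 11 G2M genes were at least 2-fold lower than in the control (median −1.02) and in the Mll3-labelled cells 1 of 12 (median −0.47), against 5.54% and 2.17% of all genes (medians −0.10 and 0.07). Ube2c, a mitotic ubiquitin-conjugating enzyme, stood at 244 (204 to 289), 199 (167 to 237) and 56.8 (47.1 to 67.9) CPM, but Top2a at 347 (299 to 400), 213 (179 to 251) and 365 (340 to 392). In all, 9 of 11 G2M genes lay below 0 in the Mll4-labelled and 11 of 12 in the Mll3-labelled cells.

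The G2M sums were alike across libraries in Xcr1 cells and far apart in Cd209a cells. Xcr1 cells summed to 3226, 2989 and 3379 CPM of G2M genes in the control, Mll3-labelled and Mll4-labelled libraries. Cells with Cd209a and no Xcr1 (12, 16 and 49) summed to 3339, 378 and 1583. With the per-cell spread given above, a few dividing cells can set the sum of groups this small. Without the cells with 10 or more HSC-list UMIs the Cd209a cells of the control (7) stood at 5118, and without those with 5 or more C1q UMIs the Mll4-labelled ones (34) at 2080.0.

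The genes furthest from the control, chosen by rank, included histone genes in the Mll3-labelled cells. Hist2h2ac was at log2 −2.61 (−3.81 to −1.68), Hist1h3e at −2.28 and Hist1h2ae at −2.05; the last stood at 598, 144 and 525 CPM. In the other barcodes of the control and the Mll3-labelled library Hist2h2ac stood at 114 and 62.1, Hist1h3e at 130.2 and 66.6 and Hist1h2ae at 804 and 488 CPM, so they were lower there too. Samsn1, Clec4a2, Prtn3, Myb, C1qb and Spc25 followed, with ratios from −2.15 to −1.92. In this order they were found in 16, 11, 11, 9, 11 and 10 of 36 control cells. In the 54 Mll3-labelled cells they were found in 8, 5, 7, 6, 5 and 7. Hist2h2ac was found in 9 and 6, Hist1h3e in 16 and 10 and Hist1h2ae in 17 and 17 cells of these libraries. Cxcl9, an interferon-gamma-induced chemokine that draws Cxcr3-positive T cells, stood at 273, 68.0 and 261 CPM in 8, 5 and 30 cells. In Xcr1 cells it stood at 453 (381 to 535), 83.0 (60.3 to 111) and 124 (103 to 148), lower in both mutant libraries.

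The highest ratios in the Mll3-labelled cells were those of Mgl2 (2.38), the heat-shock gene Hspa1a (2.33), the phosphatase Dusp1 (2.28), Kctd20 (2.25), Pkp3 (1.96) and the septin Sept3 (1.91). Hspa1a stood at 51.7 (7 cells), 264 (36 cells) and 77.1 CPM (35 cells), and at 1.42, 20.1 and 40.9 CPM in other barcodes. Sept3 stood at 42.4, 162 and 64.4 CPM, against at most 0.581 in other barcodes, and in Xcr1 cells at 68.4 (42.4 to 105), 200 (164 to 242) and 130 (109 to 155). Tpm3-rs7 (1.75 in the Mll3-labelled and −3.95 in the Mll4-labelled cells) shares sequence with Tpm3, and its counts are uncertain; other barcodes had it at 103, 237 and 4.14 CPM.

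The highest ratios in the Mll4-labelled cells began with 4 genes without a UMI in the control. Cpa3 had 273 UMIs against 0 in the control (at least 23.3-fold higher, against a floor of 3 UMIs over the group), Fn1 191 (at least 16.3-fold), Ccl8 154 (at least 13.2-fold) and Cma1 129 (at least 11.0-fold). The exact ratio intervals, which cover counting error, began lower, at 18.9-fold for Cpa3, 13.15-fold for Fn1, 10.6-fold for Ccl8 and 8.84-fold for Cma1. Ms4a7 (6.07), Mpo (5.54), Elane (5.35), Lpl (4.995), Lyz1 (4.71) and F13a1 (4.65) followed. The 3 cells with most Cpa3 held 81.3% of it, and the 3 with most Elane 69.8%. Fn1 and Ccl8 were each found in 11 of 107 cells. Other barcodes of that library had Mpo at 3843, Elane at 2029, Cpa3 at 768, Cma1 at 466 and F13a1 at 304 CPM. These were above the 300.0, 188, 129, 61.0 and 162 CPM of the dendritic-like cells. Fn1, Ccl8, Ms4a7, Lpl and Lyz1 were lower in the other barcodes than in the dendritic-like cells. The share of cells with Cpa3 was not above that of the lymphoid-primed cells, so it is not read as expression.

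The lowest ratios there, after Tpm3-rs7, were those of Ctla2a (−3.10), Hlf (−2.95), Car2 (−2.94), Sept1 (−2.85), Sox4 (−2.64), Ltb (−2.61), Ptprcap (−2.54), Cd34 (−2.34) and Adgrl4 (−2.30). Hlf, a stem-cell factor, stood at 107, 31.7 and 13.7 CPM, found in 9 of 36, 4 of 54 and 10 of 107 cells. Hlf and Cd34 are on the HSC list, by which the cells with 10 or more such UMIs were picked. Each gene named here was also lower in the other barcodes of the Mll4-labelled library than in those of the control. Ctla2a stood there at 263 against 852 CPM, Hlf at 138 against 291.5 and Car2 at 198 against 531. Sept1 stood at 45.0 against 150, Sox4 at 152 against 455 and Ltb at 32.6 against 113. Ptprcap stood at 105 against 389, Cd34 at 202 against 333 and Adgrl4 at 162 against 411.5.

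Among the 6 surface antibodies, which took no part in the rule, CD48 had the highest median. Its median centred log ratio (natural log, over the 6 antibodies of a cell) was 3.63 in the control, 4.05 in the Mll3-labelled and 3.81 in the Mll4-labelled dendritic-like cells, against 2.11, 0.760 and 3.06 in other barcodes. It was also high in the monocyte and macrophage-like cells (3.34, 3.17 and 3.36) and the granulocyte progenitors (3.38, 3.26 and 3.38). CD117, the Kit protein on which the cells were sorted, had medians of −0.158, −0.119 and −0.0669 against 0.969, 1.25 and 0.676. Its median count was 67, 92 and 92 per dendritic-like cell against 217, 410 and 173, so it was lower also without centring. Kit RNA stood at 124 (95.8 to 157), 93.7 (71.8 to 120) and 189 (171 to 208) CPM against 215, 217 and 365. CD34 had medians of −0.370, −0.700 and −0.876 against 0.774, 0.855 and 0.0779. The monocyte and macrophage-like cells also lay below the other barcodes, with CD117 at 0.442, 0.148 and 0.305. Their CD34 was at −0.106, −0.0893 and −0.640. Granulocyte progenitors lay above the dendritic-like cells, with CD117 at 1.28, 0.987 and 0.702 and CD34 at 0.527, 1.12 and 0.456.

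**Figure D5:**
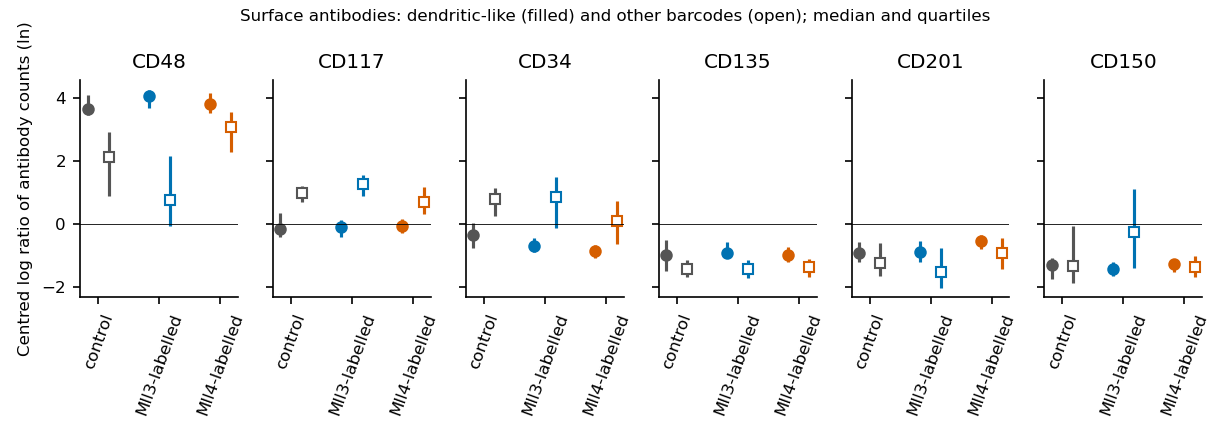
Median and quartiles of the centred log ratio (natural log) of 6 surface antibodies in dendritic-like cells (filled circles) and other barcodes (open squares) of 3 libraries. CD48 is higher, and CD117 and CD34 are lower, in the dendritic-like cells of each library.

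Ly6a, the gene of Sca1, on which the cells were also sorted, stood at 102 (76.5 to 132), 243 (207 to 284) and 165 (148 to 183) CPM in the dendritic-like cells and at 93.4, 132 and 118 in other barcodes. CD135, the Flt3 protein, had medians of −1.002, −0.946 and −0.988 against −1.43, −1.43 and −1.38, but its share of antibody counts was lower in the dendritic-like cells of each library. CD48 took 91.9%, 93.9% and 92.9% of their antibody counts, so shares of the other 5 are pressed down. CD201 likewise changed order with the scale in all 3 libraries, and CD150 in the control and the Mll4-labelled library.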

How the data were processed

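Gene and antibody values were raw UMI counts per cell barcode as deposited by the authors in sparse matrices of 32285 genes and 6 antibodies. Per the submitters' processing notes, Cell Ranger 6.1.1 and the mm10 build were used; the filter that chose barcodes is not given in the sources used here. Coordinates are from GENCODE M21 (GRCm38), in which 32158 gene identifiers were found. Libraries were 10x Genomics 3-prime version 3.1 with feature barcodes, per the labels' protocols.

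Barcodes were chosen by the rule stated in the report. The members, the gene lists and the rules were chosen with earlier results of these data known. UMIs of the dendritic-like cells were summed per library and divided by the total (CPM). Ratios are log2 after adding 0.5 UMIs, and list medians use genes of at least 50 mean CPM in both sums. The 95% intervals were exact Poisson ones on sums, conditional binomial ones on ratios and Clopper-Pearson ones on shares. No count model was fitted because each genotype has 1 library, so a group holds 1 sample. The ratio procedure was checked on simulated Poisson counts drawn from the summed control proportions. They held no variation between cells, so they cannot show how the intervals fare where few cells hold most UMIs. Ranked genes had at least 50 CPM and 20 UMIs in 1 of both sums, the 10 highest and 10 lowest per library. Against other barcodes the 15 genes with the highest ratio in the library where it is lowest were taken, at 50 CPM or more in the members of each library. Selecting, mitochondrial, ribosomal protein, haemoglobin, immunoglobulin, T-cell receptor and unnamed genes were left out. So were Xist, Tsix, the Y genes Ddx3y, Eif2s3y, Uty and Kdm5d, and symbols shared by several identifiers. Genes of the fixed lists could be named with their values.

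No doublets were removed. Scrublet (scanpy 1.11.5) at its own threshold called 3, 3, 171 and 1 barcodes, under 0.5% in 3 libraries, so it had not worked there. As an alternative the highest scores were removed, 0.8% per 1000 barcodes (423, 298, 184 and 180 barcodes, of which 2, 5, 2 and 0 were dendritic-like). Other alternatives were looser and stricter selection and filters, thinning to 5000 UMIs, TMM factors (edgeR 4.0.16, R 4.3.3), median-of-ratios factors, other totals, equal weight per cell and other expression minimums. Alternatives without cells rich in HSC-list or C1q UMIs, and with Xcr1 cells only, were added after seeing the data. Other software was Python 3.11.15, numpy 2.4.6, scipy 1.17.1 and pandas 2.3.3.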

Additional observations from a re-analysis of the deposited data

How the results depend on the processing

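No paired analysis was possible because each genotype has 1 library. With at most 5% mitochondrial UMIs the share of barcodes was 0.724% in the control and 1.42% in the Mll3-labelled library. In the Mll4-labelled library it was 2.98% at a selecting share of 0.02%, 1.61% at 0.05% and 1.63% without cells of 5 or more C1q UMIs. The order of the 4 libraries was the same in each of these settings. Thinning to 5000 UMIs took cells with both Cd209a and Xcr1 or Clec9a to 9.38% in the control and 5.36% in the Mll4-labelled library, and cells with neither to 24.1% in the latter, where 0.02% gave 16.1%; without C1q-rich cells the control had 0 with neither. In Xcr1 cells the cDC1 median of the Mll3-labelled library was 0.19, and the cDC2 and G2M medians of the Mll4-labelled library were 0.25 and −0.079. Without C1q-rich cells that G2M median was −0.47. The Mll4-labelled cDC1 median was −0.67 without HSC-rich cells and −0.54 with equal weight per cell. Its pDC median, over few genes, was 0.40 at a selecting share of 0.05% and 0.36 at a minimum of 20 or 100 CPM. As a percentage of antibody counts, dendritic-like cells minus other barcodes turned negative for CD150 (−3.41 in the control, −1.23 in the Mll4-labelled library), CD201 (−1.77, −1.95 and −0.395 in the 3 libraries) and CD135 (−0.521, −0.728 and −0.120); CD150 in the control was −0.0953 with uncentred logs. The cause was not tested. CD48, CD117 and CD34 kept their direction on the 3 scales. Medians of the MHC class II, class I and S phase lists stayed within the counting interval of the middle gene's ratio in the settings tried, though the Mll4-labelled class II median was −0.16 in Xcr1 cells. Depth limits the Mll3/4-labelled library most, with a median of 8920 UMIs.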
